A study of Mus musculus with 3 samples.

Results

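The open chromatin described here lies around 4 genes of the fat cell precursor, Zfp423, Pdgfra, Pdgfrb and Dlk1, in fat cells grown from 3 mouse fat depots. A site was included if its midpoint lay in 1 of 4 fixed stretches of the mm9 genome: chromosome 8 from 90120000 to 90550000 around Zfp423 (430 kb), chromosome 5 from 75450000 to 75700000 around Pdgfra (250 kb), chromosome 18 from 61130000 to 61320000 around Pdgfrb (190 kb) and chromosome 12 from 110600000 to 110800000 around Dlk1 (200 kb). These windows held 110 of the 172496 listed sites: 37 of 60974 in epididymal white fat (eWAT), 46 of 63214 in inguinal white fat (iWAT) and 27 of 48308 in brown fat (BAT). Sites were taken by position only and not by their measured values. The windows themselves were chosen with earlier results of these data known.

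The lists come from DNase-seq, in which the enzyme DNase I cuts exposed DNA in nuclei and the cut ends are sequenced as tags, so that many tags mark a hypersensitive site. All 3 groups were male NMRI mice of 4 to 5 weeks with no genetic change named in the labels. The BAT group combined interscapular, cervical and axillary fat. Stromal-vascular cells, the part of fat that holds the precursors, were plated and grown in 10% newborn calf serum with insulin (30 nM) and rosiglitazone (1 µM), a PPARγ agonist that promotes fat cell formation, and were harvested on day 8. All groups shared this treatment. Cultures were used if more than 50% of the cells had differentiated, so undifferentiated cells may have remained in them. In such a bulk culture a site open in fewer cells and a site less open in each cell cannot be told apart. There was 1 library per depot and hence no replicate error: no difference between depots was tested, and every value below describes single libraries.

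Zfp423 is a zinc finger transcription factor that commits mesenchymal cells to the fat lineage and, in mature white fat cells, restrains the heat-producing programme. Pdgfra and Pdgfrb are the receptor tyrosine kinases for platelet-derived growth factors. They mark fat cell precursors, and Pdgfrb also marks the mural cells of blood vessels. Dlk1, known as preadipocyte factor 1, is a membrane protein with a shed form that holds precursors back from differentiating, and it lies in an imprinted domain. All 4 genes are best known from the precursor stage, whereas the cultures examined here had been through differentiation.

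The windows hold or border other genes. In RefSeq's mouse gene order (GRCm38) the nearest protein-coding genes were 4933402J07Rik and Cnep1r1 for Zfp423, Gsx2 and Kit for Pdgfra, Gm52351 and Csf1r for Pdgfrb, and Begain and Rtl1 for Dlk1. The noncoding RNA gene Meg3 lies between Dlk1 and Rtl1. A gene annotation in mm9 was not used here, so sites are given by position and are not assigned to a promoter, an intron or a gene.

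Site strength is given in 2 ways. The normalized tag count is the authors' value and is relative to the site's own library. The rank percentile is the share of the depot's own list at or below that tag count, with ties averaged, and a site above the 75th percentile is called strong. The median tag counts of the whole eWAT, iWAT and BAT lists were 9.52, 13.8 and 12, equal to 16, 14 and 14 sequenced tags. The lowest peak scores of the eWAT, iWAT and BAT lists were 11, 9 and 10, which is 6.54, 8.87 and 8.57 normalized tags if 1 score unit is worth 1 tag. If the libraries were also scaled to the same total, the eWAT list reaches to weaker sites. A site missing from a list is not shown to be closed.

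As a group the sites of the 4 windows were of ordinary strength. The eWAT, iWAT and BAT members had median rank percentiles of 44.4, 43.5 and 52.9. Strong sites numbered 9 of 37 in eWAT, or 24.3% (exact Clopper-Pearson 95% interval 11.8 to 41.2). In iWAT they were 10 of 46, or 21.7% (11.0 to 36.4), and in BAT 7 of 27, or 25.9% (11.1 to 46.3). The shares over the whole lists were 25.6%, 26.1% and 26.2%. Intervals here and below allow for counting error alone and treat nearby sites as if they were independent.

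By count alone, sites were denser than over the whole lists around Zfp423 and Pdgfra, and in the white depots around Pdgfrb. They were sparser around Dlk1. No density was tested against the whole lists. The Zfp423 window held 34.9 eWAT, 53.5 iWAT and 32.6 BAT sites per Mb, against 23.7, 24.6 and 18.8 per Mb over the whole lists. The Pdgfra window held 32 sites per Mb in every depot, also above the whole-list density in all 3. The Dlk1 window held 15 sites per Mb in eWAT and in iWAT and 10 in BAT, below the whole-list density in all 3. The Pdgfrb window held 57.9 and 63.2 sites per Mb in eWAT and iWAT, the densest of the 4 in these lists, but 15.8 in BAT. The Pdgfra densities rest on 8 sites per list, and those of Dlk1 on 3, 3 and 2 (eWAT, iWAT, BAT). Their counting intervals are wide. Per 10000 listed eWAT sites the exact 95% interval was 0.57 to 2.59 for Pdgfra and 0.10 to 1.44 for Dlk1.

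Overlapping or touching sites from the 3 lists were joined, which gave 70 merged regions in the 4 windows. Of these, 12 were listed in all 3 depots (17.1%, exact 95% interval 9.18 to 28.0), where 25.2% of all 99297 merged regions were. A single depot listed 42 of them (60.0%, 47.6 to 71.5), against 51.5% of all regions. Of these, eWAT listed 13, iWAT 19 and BAT 10, that is 18.6%, 27.1% and 14.3% of the 70, against 19.6%, 20.5% and 11.4% of all regions. Regions in exactly 2 lists were mostly shared by the white depots: 11 (15.7%) belonged to the white pair, 4 (5.71%) to iWAT with BAT, and 1 (1.43%) to eWAT with BAT. The backgrounds for these pairs over all regions were 11.3%, 6.73% and 5.32%. The share common to all 3 depots was thus somewhat lower than the background, which lay inside its interval. The number for the white pair depends on the overlap rule. White-pair regions around Zfp423, Pdgfra and Dlk1 had a BAT site 13, 9 and 56 bp away.

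**Figure D1:**
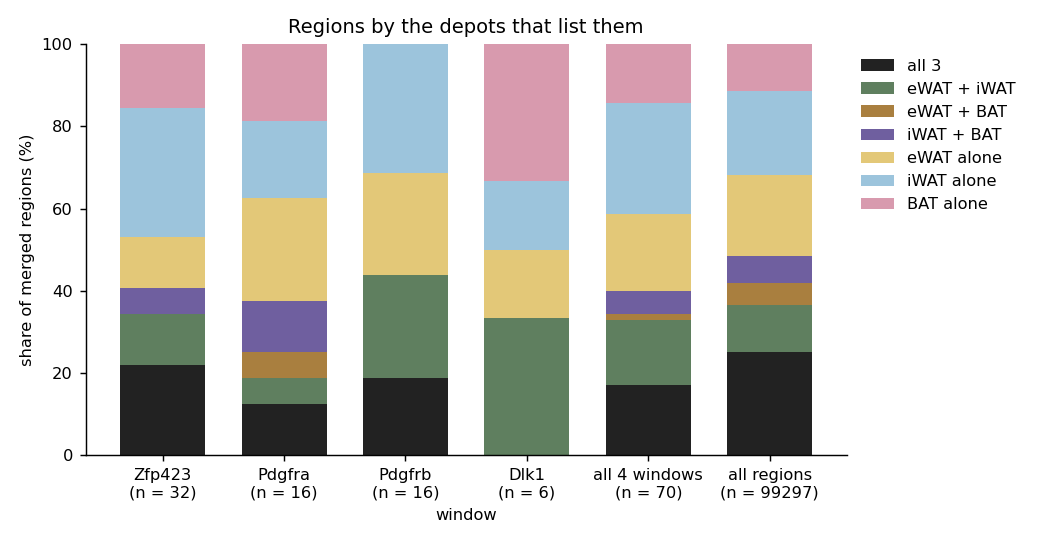
Share of merged regions (vertical axis, percent) by the depots that list them, for the 4 windows, their sum and all regions of the lists; the number of regions stands under each bar. The Pdgfrb bar has no part listed in BAT alone, and the Dlk1 bar has no part common to all 3 depots.

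The Zfp423 window contained the same leading region in every depot, together with many weak sites that differed between lists. This region lay at 90491126 to 90491422 and held the highest site of the window in each list. Its tag count was 22 in eWAT (37 tags), 43.3 in iWAT (44 tags) and 37.7 in BAT (44 tags). These values put it at rank percentiles 93.5, 96.9 and 96.9, and it stood 14.4, 22.8 and 25.7 times above its surroundings. It was thus among the top 10% of sites in all 3 depots.

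To compare depots at common regions, the log2 ratio of 2 depots' tag counts was centred on its median over the 24988 common regions with 1 site per list. Those medians were -0.60 for eWAT over iWAT, -0.28 for eWAT over BAT and 0.33 for iWAT over BAT. At the leading Zfp423 region the centred log2 ratio was -0.37 (95% counting interval -1.05 to 0.29) for eWAT over iWAT, -0.50 (-1.17 to 0.16) for eWAT over BAT and -0.13 (-0.76 to 0.51) for iWAT over BAT. All 3 intervals included 0.

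Of the 32 Zfp423 regions, 7 were common to all 3 depots. Besides the leading one, 5 common regions were chosen by mean rank, and these were of middling strength. The region at 90485661 to 90485972, about 5.46 kb before the leading one, had normalized tag counts of 12.5, 15.8 and 9.42 (eWAT, iWAT, BAT), and its rank percentiles were 70.3, 59.1 and 23.4. The region at 90498868 to 90499135, on the other side, ran the other way, with percentiles 30.4, 43.5 and 62.2. Farther off, the regions at 90239732 to 90240149 and 90243159 to 90243503 formed a pair 251 and 248 kb before the leading region. The first of them ranked at 67.1 in eWAT and 57.9 in BAT but at 20.2 in iWAT, where the called site lay 196 bp from the eWAT centre. The second ranked at 55.2, 63.1 and 52.9 in eWAT, iWAT and BAT. The region at 90143348 to 90143585 had normalized tag counts of 10.1, 12.8 and 12.8, at 13.7, 17.9 and 18.8 times the density of its surroundings, with centres at most 16 bp apart. No centred ratio of these 5 regions reached 2-fold.

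The remaining common region, at 90456604 to 90456971, is named because of its values: its iWAT site held 20.7 normalized tags and was strong (percentile 75.1), against 7.14 in eWAT (21.7) and 8.57 in BAT (12.5). The centred log2 ratio was -0.93 (-2.09 to 0.16) for eWAT over iWAT and 0.95 (-0.20 to 2.20) for iWAT over BAT, just short of 2-fold. These values rest on 12, 21 and 10 tags. With the tag counts as deposited and no centring, the log2 ratios were -1.54 and 1.27.

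iWAT listed the most sites in the Zfp423 window, 23 against 15 in eWAT and 14 in BAT. Of its 23 sites, 10 overlapped no other list, where 20317 of all 63214 iWAT sites overlapped none. Per 10000 listed sites the window held 3.64 in iWAT (exact 95% interval 2.31 to 5.46), 2.46 in eWAT (1.38 to 4.06) and 2.90 in BAT (1.58 to 4.86), and the intervals overlapped. The size of the excess varied with how the lists were limited. With each list limited to its 48308 highest sites, the numbers were 15 in iWAT, 12 in eWAT and 14 in BAT. When all lists had the same minimum score in normalized tags, iWAT kept 23, eWAT 6 and BAT 11; this setting was chosen after seeing the data. The iWAT-only site with the highest tag count, at 90438155 to 90438377, is named for its values: it held 17.7 normalized tags (percentile 66.7) at 24.0 times the density of its surroundings. Its nearest neighbour in another list was a BAT site 8.18 kb away. None of the 19 single-depot Zfp423 regions held a strong site. Such regions were few over the whole lists too, 3989 of 51131 single-depot regions. The white depots shared a region at 90359399 to 90359622 that BAT did not list. It held 13.7 normalized tags in eWAT (percentile 75.6) and 15.8 in iWAT (59.1), and the nearest BAT site was 13.7 kb away.

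**Figure D2:**
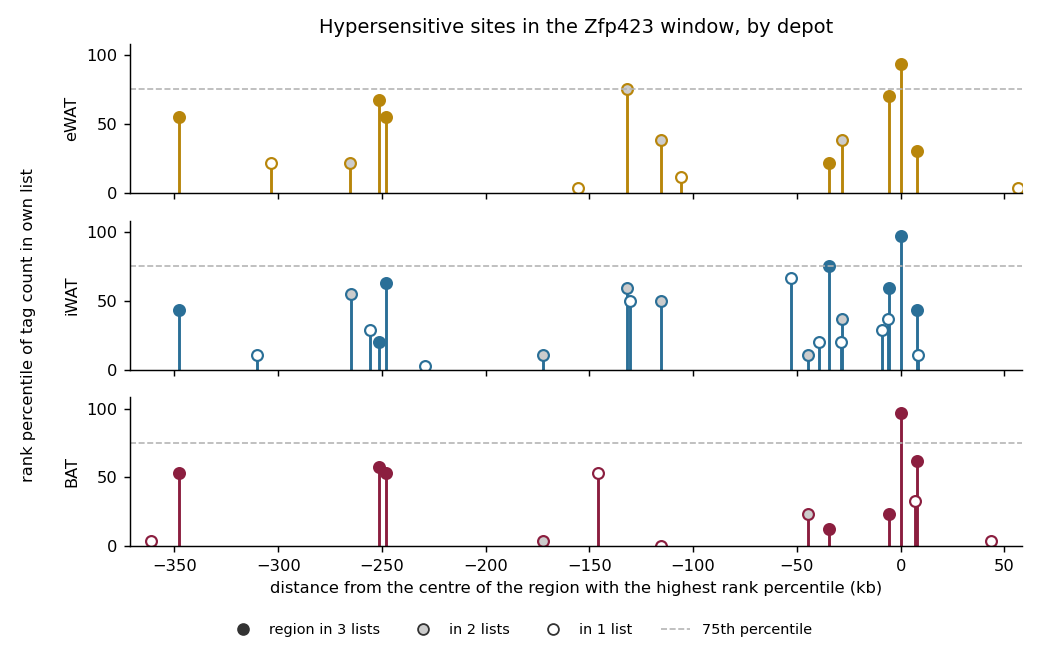
Each line is a hypersensitive site of the Zfp423 window in eWAT, iWAT or BAT; its height is the rank percentile of its tag count in its own list, and the horizontal axis is the distance in kb from the leading region. The leading region stands at percentile 93.5 to 96.9 in every depot, and iWAT has the most sites.

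The Pdgfra window held 8 sites in each depot, and its strong sites lay in 2 places about 100.0 kb apart. One place had the highest site of the window in eWAT and in iWAT and tied for the highest in BAT. It was open in all depots, but at slightly different positions. The sites of eWAT and iWAT formed the region at 75652995 to 75653261, with 25 and 33.5 normalized tags (42 and 34 tags, percentiles 95.9 and 92.4). The BAT site lay at 75653270 to 75653492, with 34.3 normalized tags (40 tags, percentile 95.6), the same tag count as the BAT site of the other place. Only 9 bp separated it from the iWAT site and 55 bp from the eWAT site. The fold over the surroundings was nearly the same, 16.0, 15.9 and 16.4. By the overlap rule these count as a region shared by the white depots and a BAT-only region, although each list has a top 10% site there.

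The other place was a run of sites from 75539093 to 75553229. Its common region at 75552951 to 75553229 had normalized tag counts of 22.6, 28.6 and 34.3 (eWAT, iWAT, BAT; percentiles 94.1, 88.4 and 95.6). It stood 7.89, 7.10 and 12.7 times above its surroundings, so that by fold it was strong in BAT alone (fold percentiles 55.5, 25.0 and 75.5). The centred log2 ratio was 0.26 (-0.47 to 1.01) for eWAT over iWAT, -0.32 (-1.003 to 0.35) for eWAT over BAT and -0.59 (-1.33 to 0.14) for iWAT over BAT. Here too every interval included 0.

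Next to it the depots listed different sites. eWAT and BAT shared the region at 75550482 to 75550743, with 15.5 and 20.6 normalized tags (percentiles 82.0 and 81.4), which iWAT did not list. iWAT instead listed 75548273 to 75548495, with 24.6 normalized tags (percentile 82.9), 1.99 kb from the nearest eWAT site. The eWAT and iWAT sites stood 4.41 and 4.69 times above their surroundings, close to the minimum of 4 found in every list (fold percentiles 4.83 and 3.73). The BAT site stood 6.46 times above its surroundings, at fold percentile 21.4. Whether the other lists hold tags there below that minimum was not tested.

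The second common Pdgfra region, at 75539093 to 75539406, had normalized tag counts of 12.5, 22.7 and 13.7 (eWAT, iWAT, BAT; percentiles 70.3, 79.5 and 57.9). It stood 12.5, 13.5 and 13.8 times above its surroundings. iWAT listed a further site 270 bp from the nearest site of another depot, at 75539636 to 75539858, with 19.7 normalized tags. The rest of the window held weaker sites. Of the 10 single-depot Pdgfra regions, 4 lay within 1 kb of another depot's site, and 2 held a strong site, both described above.

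**Figure D3:**
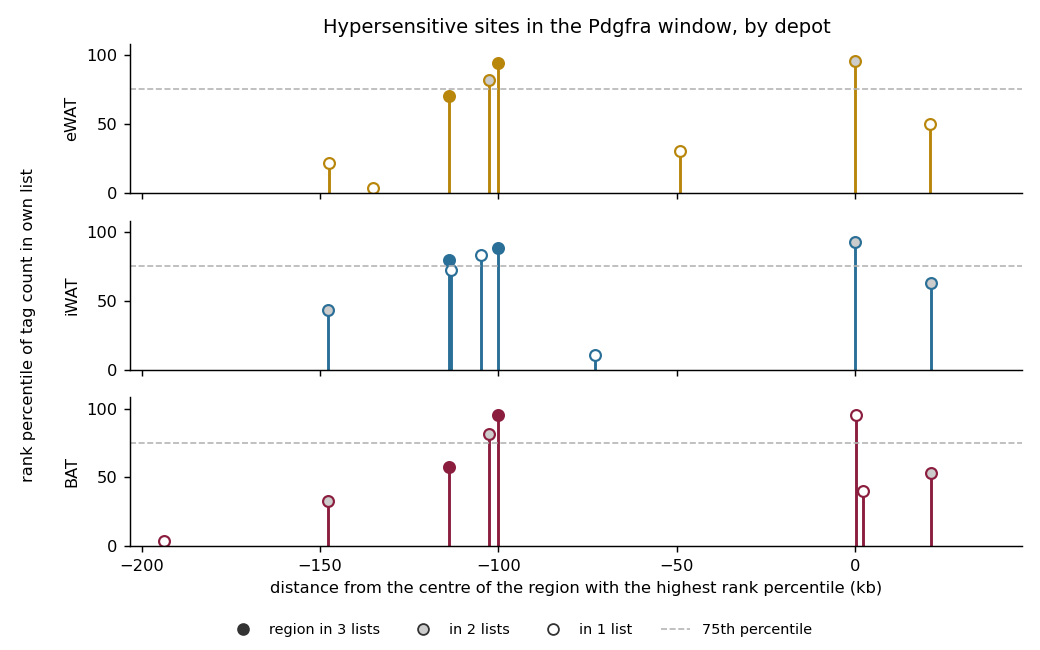
Each line is a hypersensitive site of the Pdgfra window, with its rank percentile in its own list as height and the distance in kb from the region shared by eWAT and iWAT on the horizontal axis. In BAT the site near 0 appears as listed in 1 list because it lies 9 bp beyond the iWAT site.

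Pdgfrb showed the clearest difference in the number of sites: eWAT listed 11, iWAT 12 and BAT 3. Per 10000 listed sites this was 1.80 (exact 95% interval 0.901 to 3.23) for eWAT, 1.90 (0.981 to 3.32) for iWAT and 0.621 (0.128 to 1.82) for BAT. The intervals overlapped. With lists of equal length the numbers were 10, 10 and 3. The 3 BAT sites were each part of a region common to all depots, and no Pdgfrb region was listed in BAT alone.

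The 2 strong BAT sites lay in regions that were strong in the white depots as well. The region at 61152660 to 61152910 held the highest site of the window in each list, with 26.8 normalized tags in eWAT (45 tags), 39.4 in iWAT (40 tags) and 30 in BAT (35 tags), at percentiles 96.9, 95.5 and 93.1. Its centred log2 ratios were 0.05 (-0.60 to 0.70) for eWAT over iWAT, 0.11 (-0.56 to 0.79) for eWAT over BAT and 0.07 (-0.62 to 0.77) for iWAT over BAT. The region at 61231734 to 61231997, 79.1 kb away, had normalized tag counts of 20.2, 28.6 and 26.6 (eWAT, iWAT, BAT), at percentiles 91.5, 88.4 and 90.3. Its centred log2 ratios lay between -0.22 and 0.10. By tag count both regions were in or near the top 10% of every list. Their folds over the surroundings were less prominent. The first region stood 12.4, 11.4 and 12.6 times above its surroundings, at fold percentiles 88.3, 61.2 and 74.9 (eWAT, iWAT, BAT), and the second 6.60, 9.90 and 13.6 times, at fold percentiles 37.8, 49.8 and 79.8. Ranked by fold, the first was therefore strong in eWAT only and the second in BAT only.

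The third common region, at 61234230 to 61234506, was the sole region of the 4 windows past 2-fold. It held 17.2 normalized tags in eWAT (29 tags), 15.8 in iWAT (16 tags) and 9.42 in BAT (11 tags), at percentiles 86.5, 59.1 and 23.4. It stood 6.82, 5.42 and 4.64 times above its surroundings, which is low in each list (fold percentiles 41.1, 9.22 and 3.87). eWAT was higher than BAT by 1.15 on the centred log2 scale (0.11 to 2.30), or 2.21-fold. Over all common regions 2.44% were at least 2-fold higher in eWAT than in BAT, and 11.6% passed 2-fold in some pair of depots. The 1 region of 12 found here is 8.33% and near that background. With no centring the log2 ratio was 0.87 and no longer past 2-fold.

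The white depots listed 13 further Pdgfrb regions that BAT did not. They shared 4 of these, eWAT alone listed 4 and iWAT alone 5. Of the eWAT sites that were not strong, 0 of 8 overlapped a BAT site, where 37.8% of all such eWAT sites did. In iWAT it was 1 of 9, against 38.6%. Of the strong sites, 3 of 3 in eWAT and 2 of 3 in iWAT overlapped a BAT site, against 80.0% and 78.8%. As the window held only 3 BAT sites, few overlaps were possible, so these numbers restate that count. Rescaled to BAT by the median ratio of common regions, the 8 eWAT sites missing from BAT corresponded to 7.93 to 14.4 BAT tags (median 10.4). Of these, 2 lay above the BAT list's median of 12 and 1 lay below 8.57, the lowest BAT score in normalized tags. The 9 iWAT sites missing from BAT corresponded to 7.08 to 23.6 (median 9.42), with 2 above that median and 2 below that lowest score. Most of the missing sites thus converted to values below the BAT median but above its lowest score. Score and tag count are different values, and the BAT list reached down to a tag count of 6. All of these converted values lay above 6. The 4 eWAT-only sites had a median rank percentile of 54.0 in their own list and the 5 iWAT-only sites one of 36.7, against 30.4 and 29.0 for single-depot sites over the whole lists.

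Windows with so few BAT sites beside this many white sites were uncommon. The BAT density alone, 15.8 sites per Mb, lay near the 18.8 of the whole BAT list, while both white densities lay above those of their lists. On a grid of the same length (190 kb), 1608 windows held at least 10 eWAT and 10 iWAT sites, and in 0.684% of them (11 windows) the BAT number was no more than each white number divided by 3. The median ratio of the BAT number to the mean of the white numbers was 0.8 in these windows (5th percentile 0.5), against 0.261 around Pdgfrb. This yardstick was chosen after the Pdgfrb numbers were seen and describes the 3 libraries only.

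Among the 4 strong single-depot sites of all windows, an iWAT site in the Pdgfrb window, at 61170115 to 61170337, lay farthest from any site of another depot. It held 29.6 normalized tags (30 tags, percentile 89.3) and stood 40.0 times above its surroundings, where the iWAT median was 9.91. The nearest eWAT site lay 9.07 kb and the nearest BAT site 17.2 kb away. By the median ratios its tag count corresponds to 19.5 normalized tags in eWAT and 23.6 in BAT, above both lists' medians. Over the 4 windows, 15 regions held a strong site. A single depot listed 4 of them (26.7%, against 15.9% of all regions with a strong site). All 3 depots listed 7 (46.7%, against 61.9%). These shares depend on the overlap rule. The 4 include the BAT site 9 bp from the iWAT site at the highest Pdgfra place. They also include a BAT site of the Dlk1 window at percentile 75.04. The 7 leave out that Pdgfra place and a Dlk1 place where BAT listed a site 56 bp from the eWAT site.

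**Figure D4:**
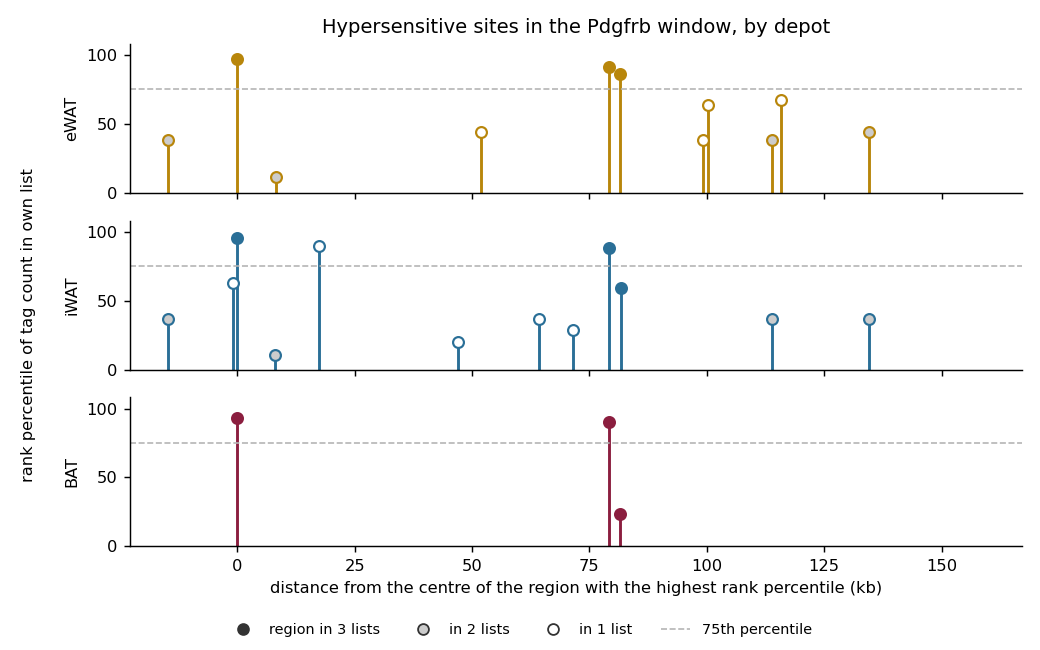
Each line is a hypersensitive site of the Pdgfrb window, with its rank percentile in its own list as height and the distance in kb from the leading region on the horizontal axis. BAT has 3 lines, all at regions common to the 3 depots, and the iWAT site 17.4 kb from the leading region has no partner.

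Dlk1 had the fewest sites (eWAT and iWAT 3 each, BAT 2) and no region common to all 3 depots. That is 0 of 6 regions (exact 95% interval 0 to 45.9%). The 25.2% found over all regions lay inside this interval. The strongest place was again listed at shifted positions. eWAT and iWAT shared the region at 110769761 to 110770029, with 16.1 and 22.7 normalized tags (27 and 23 tags, percentiles 83.6 and 79.5). The BAT site at 110770085 to 110770307 lay 56 bp from the eWAT site and held 12.8 normalized tags (15 tags, percentile 52.9). The folds over the surroundings were 15.6, 14.7 and 12.9. When sites within 200 bp were merged as well, this became a common region.

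The highest BAT site of the Dlk1 window lay at the other end, at 110635963 to 110636185. It held 18 normalized tags (21 tags) and stood 12.3 times above its surroundings, and at percentile 75.04 it was barely strong. The nearest sites of the other depots, 1.36 kb away in iWAT and 1.54 kb away in eWAT, formed the region at 110637541 to 110637948 with 10.8 and 6.54 normalized tags (percentiles 29.0 and 11.8). The other 2 regions were weak single-depot sites, at 7.88 normalized tags in iWAT (percentile 2.85) and 5.95 in eWAT (3.80). No Dlk1 site reached the top 10% of its list, while each of the other 3 windows held such a site in every depot. The Dlk1 window held only 8 sites, against 52, 24 and 26 for Zfp423, Pdgfra and Pdgfrb. At an equal share it would thus hold fewer top 10% sites.

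Common regions are defined by overlapping sites, which keeps their centres close. At the 12 common regions the distance between site centres had a median of 41 bp between eWAT and iWAT, 19.5 bp between eWAT and BAT and 57 bp between iWAT and BAT, against 41, 43 and 44 bp over all common regions. Centred ratios past 2-fold numbered 0 of 12 for eWAT and iWAT (3.82% of all common regions), 1 for eWAT and BAT (5.17%) and 0 for iWAT and BAT (5.68%). Tag numbers at these regions ranged from 10 to 45, so that the counting intervals of the ratios are wide.

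Some single-depot sites had a close neighbour in another list. Within 1 kb of such a site lay 2 of 13 eWAT-only sites, 6 of 19 iWAT-only sites and 4 of 10 BAT-only sites. The shares over the whole lists were 34.2%, 37.2% and 44.9%. The single-depot sites ranked low, at median percentiles of 21.7 in eWAT, 29.0 in iWAT and 36.5 in BAT, whereas the sites of the common regions had medians of 70.3, 69.1 and 57.9. The same order held over the whole lists, with 30.4, 29.0 and 32.6 for single-depot sites and 70.3, 72.6 and 66.0 for common ones.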

How the data were processed

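DNase-seq was done by the authors on fat cells from 3 depots, 1 library each. STAR, HOMER and mm9 are named in the submitters' processing notes, with no roles, versions or settings, and per the file headers the columns are HOMER findPeaks output. Per the file headers, each site has a normalized tag count (a signal relative to a library total that is not stated), a focus ratio (a fraction), a peak score, a fold (ratio) over its surroundings, the matching p-value and a clonal fold. The deposited p-value, focus ratio and clonal fold support no result here. Normalized tag counts were whole multiples of 0.595 in eWAT, 0.985 in iWAT and 0.857 in BAT (tolerance 0.05, or 0.005 below 10), taken as 1 tag. If the libraries were scaled to the same total, eWAT was the deepest.

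Sites were chosen by midpoint, and sites that overlapped by 1 bp or touched were merged. Named are, per window, each list's highest site, the 6 common regions with the highest mean rank percentile, regions in 1 or 2 lists with a strong site, and common regions past 2-fold; others say why. Ratio intervals are exact conditional binomial intervals on tags. Merging recovered 100% of 3000 simulated regions. The simulated sites of a region always overlapped and the regions lay far apart, so this checked the code only. It did not cover sites that lie close together without overlapping. The windows, lists and tests were chosen with earlier results of these data known. An mm9 genome and annotation were not used here, so sequences, a further list of precursor genes and the cell type markers were not analysed. Python 3.11.15, numpy 2.4.6, pandas 2.3.3, scipy 1.17.1 and matplotlib 3.10.9 were used.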

Additional observations from a re-analysis of the deposited data

How the results depend on the processing

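No paired analysis was possible because each depot has 1 library. The share of regions common to all 3 depots stayed inside its interval under all 6 alternatives to the lists and the merging, at 15.3% to 26.1%, and was below the share of all regions under each of them (18.1% to 34.6%); with sites within 200 bp merged it was 26.1% against 34.6%. With sites within 200 bp merged, the common regions rose from 2 to 5 around Pdgfra and from 0 to 1 around Dlk1. With lists of equal length, single-depot regions numbered 8 in eWAT, 12 in iWAT and 12 in BAT, so that iWAT no longer led BAT. The iWAT sites around Zfp423 then numbered 15 and the eWAT sites around Dlk1 1. With the top 50% of each list, common Zfp423 regions fell to 2 and single-depot regions to 2, 7 and 5 (eWAT, iWAT, BAT); the sites then numbered 6, 7 and 6 around Zfp423 (eWAT, iWAT, BAT), 4 and 5 around Pdgfra (eWAT, BAT), 5 and 5 around Pdgfrb (eWAT, iWAT) and 1 and 1 around Dlk1 (eWAT, iWAT), as shorter lists must give fewer sites. With the same minimum score of 8.87 normalized tags in all lists, a setting chosen after seeing the data, single-depot regions numbered 26 in iWAT, 7 in BAT and 6 in eWAT, and eWAT kept 6 Zfp423 sites and 1 Dlk1 site. Without centring, the common regions past 2-fold numbered 1 for eWAT and iWAT, 0 for eWAT and BAT and 1 for iWAT and BAT; by a rank difference of at least 25 points they numbered 3 in each pair. The cause was not tested. With strong set at the top 10%, 1 strong single-depot region was left, the BAT site beside the leading Pdgfra region. Ranked by fold over the surroundings, 18 of 45 named sites changed sides of the 75th percentile. Stricter overlap (50% of the shorter site) and a fold of at least 6 moved no count by over 1.5 times.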
